A study of Mus musculus with 25 samples.

Results

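Lipid droplet proteins and patatin lipases were followed in mouse liver as a set of 10 genes. The list was made by symbol from these protein families, and each symbol was found once among the 41388 Ensembl genes of the count tables. The members were the perilipins Plin2, Plin4 and Plin5, the CIDE proteins Cidea, Cideb and Cidec, the patatin lipases Pnpla2, Pnpla3 and Pnpla5, and the lipase inhibitor G0s2. RNA came from livers of male C57B/6J mice aged 20 weeks, with 1 library for each mouse and 25 libraries in all. WT mice were littermates homozygous for a loxP-flanked Sirt1 allele (SIRT1 fl/fl), and LKO mice carried the same allele with Albumin-cre, which is active in hepatocytes. Every mouse received the viral vector AAV8, carrying either an empty vector (EV) or NAMPT driven by the thyroxine binding globulin promoter, also a hepatocyte promoter. The groups were chow WT EV (n = 3), WD WT EV (n = 6), WD WT NAMPT (n = 6), WD LKO EV (n = 5) and WD LKO NAMPT (n = 5), where WD stands for Western diet. There was no chow group with the NAMPT vector or with the LKO genotype.

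Hepatocytes store triglyceride in lipid droplets, which are coated with proteins of the perilipin family and grow by lipid transfer between droplets in contact, a step carried out by CIDE proteins. Patatin-like lipases and their cofactors then release fatty acids from the stored triglyceride. Fatty liver is the state in which this store expands, and several of these genes are known targets of the fatty acid sensing receptors of the PPAR family or of the lipogenic factor SREBP-1c.

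Library totals ran from 20166175 to 32937326 counts. Values are given as CPM, the count of a gene relative to the library total after TMM scaling, and no library repeated another. Sirt1, the gene behind the LKO label, averaged 8.86 ± 0.573 CPM (SD, n = 6) in WD WT EV, against 8.57 ± 1.34 CPM (SD, n = 5) in WD LKO EV. Its log2 fold change was -0.07 ± 0.10 (SE) with EV and 0.19 ± 0.11 (SE) with NAMPT, with adjusted p-values of 0.99 and 0.237. Sirt1 counts were thus not detectably lower in the libraries labelled LKO, so the genotype of these libraries is known here from the label alone. Counts over the whole gene need not fall when only its loxP-flanked part is removed, and no counts of that part alone were used. Nampt averaged 47.4 ± 6.46 CPM (SD, n = 6) in WD WT EV, against 59.5 ± 10.6 CPM (SD, n = 6) in WD WT NAMPT, which is 0.34 ± 0.16 (SE) on the log2 scale at an adjusted p-value of 0.144. In the libraries labelled LKO the Nampt log2 fold change was 0.41 ± 0.16 (SE) at an adjusted p-value of 0.403. The 7 hepatocyte markers together held between 52538 and 86091 CPM in every library. As the samples are whole liver, fewer cells of a type and less RNA per cell cannot be told apart.

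Per kilobase of exon, the members spanned a wide range of levels. In chow WT EV, Plin2, the constitutive droplet coat of hepatocytes, led with 99.4 ± 4.27 CPM per kilobase (SD, n = 3). G0s2, the inhibitor of the main triglyceride lipase, followed with 77.3 ± 49.9 CPM per kilobase (SD, n = 3), within its own spread of Plin2. Cideb, Plin5 and Pnpla2 came next with 27.1, 18.6 and 18.6 CPM per kilobase. Cidec (1.14) and Plin4 (0.606 CPM per kilobase) were low, though over 1 CPM in all 3 chow libraries. Pnpla3 (0.155) and Cidea (0.0364 CPM per kilobase) were close to the lower limit, and Pnpla5 had 0 counts in all 3 chow libraries. In WD WT EV the same pair led, with 185 ± 60.9 CPM per kilobase for Plin2 and 179 ± 72.0 for G0s2 (SD, n = 6). Cidec stood beside Cideb there, at 35.2 ± 21.4 against 36.7 ± 3.17 CPM per kilobase (SD, n = 6), and Cidea, at 15.6 ± 14.7 CPM per kilobase, had passed Plin4 and Pnpla3 in the order of means, although its spread reached theirs.

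**Figure D1:**
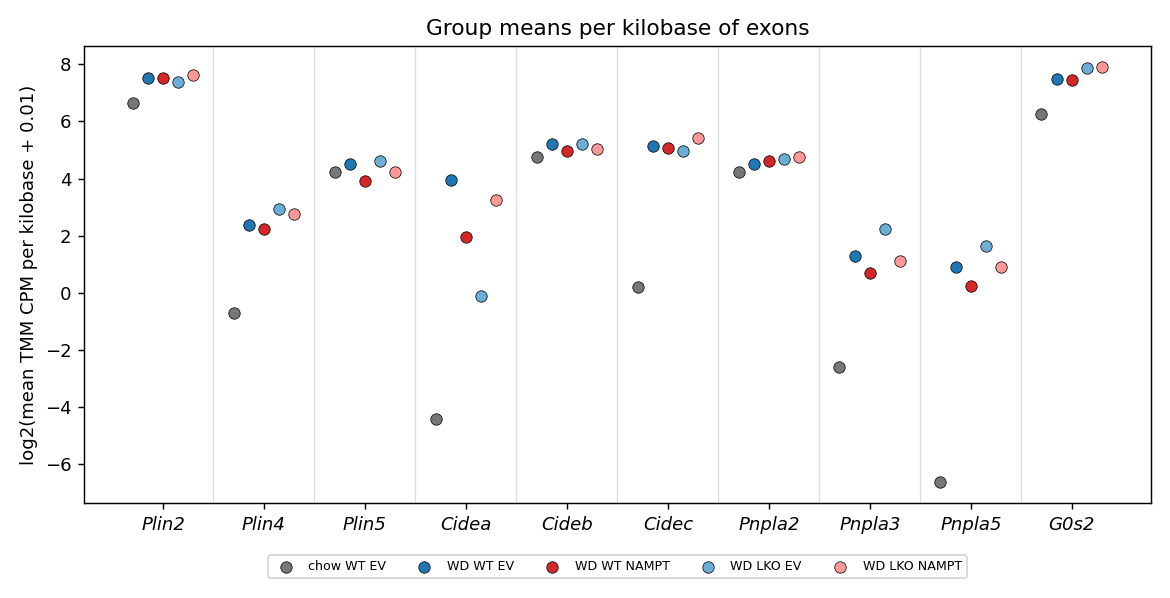
Mean level of each member per kilobase of exon in the 5 groups, on a log2 scale with 0.01 added. Each point is a group mean. Chow WT EV points (gray) lie far below the Western diet points for Cidea, Cidec, Plin4, Pnpla3 and Pnpla5.

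The first comparison asked what Western diet feeding did to these genes in WT liver with EV. All 10 members had positive log2 fold changes, and 8 of 10 rose at an adjusted p-value of 0.05 or less. Of all 14065 genes tested, 22% were called in this comparison and 10.1% were called higher. The median log2 fold change was 1.98 over the members and 0.00 (-0.0047) over all genes. The libraries of the 2 groups did not overlap for 6 of 10 members (Plin4, Cidea, Cideb, Cidec, Pnpla3 and Pnpla5), against 7.66% of all genes that were higher without overlap. All 10 members passed the filter on low counts, but Cidea and Pnpla5 were over 1 CPM in 0 chow libraries and Pnpla3 in 1, so these 3 passed through the Western diet groups.

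Plin2, on the minus strand of chromosome 4 from 86648386 to 86670060 (GRCm38), led the perilipins. It was at 354, 332 and 361 CPM in the chow libraries. In WD WT EV its lowest, median and highest values were 349, 619.8 and 941 CPM. The lowest of these lay within the chow values and the other 5 lay above them. Plin2 rose by a log2 fold change of 0.84 ± 0.17 (SE) at an adjusted p-value of 0.00118. Plin4, a coat protein best known from adipocytes and muscle, was at 4.09, 2.98 and 3.43 CPM in chow. Its lowest, median and highest values in WD WT EV were 5.73, 23.7 and 58.5 CPM, so every library was above every chow library but over a 10.2-fold range. The log2 fold change of Plin4 was 2.77 ± 0.86 (SE) at an adjusted p-value of 0.0224. Plin5, which links droplets to mitochondria in oxidative tissues, lies next to Plin4 on chromosome 17, from 56111601 to 56117596. It was at 46.7, 34.8 and 34.9 CPM in chow and at 31.9, 47.3 and 58.4 CPM (lowest, median, highest) in WD WT EV, so the groups overlapped. Its log2 fold change of 0.26 ± 0.15 (SE) did not pass the test (adjusted p = 0.221).

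Cidec, the CIDE protein that drives droplet growth in adipocytes and fatty liver, showed a 24-fold rise. The gene lies on the minus strand of chromosome 6, from 113424634 to 113435760 (GRCm38). The chow libraries held 2.61, 1.60 and 2.13 CPM, and WD WT EV libraries held 5.64 CPM at the lowest, 64.4 at the median and 115 at the highest. All WD WT EV libraries were above all chow libraries. The log2 fold change was 4.59 ± 1.13 (SE) at an adjusted p-value of 0.00528. Cidea, its relative from brown fat, was nearly absent on chow, with 3 counts summed over 3 libraries. On Western diet it was at 0.185, 14.8 and 48.3 CPM (lowest, median, highest), and 5 of 6 libraries were over 1 CPM. The ratio of the WD WT EV mean to the pooled chow level of 0.0416 CPM was 436, with a counting interval from 149 to 2114 that reflects only the few chow counts. The fitted log2 fold change of 6.98 ± 4.18 (SE) was not called (adjusted p = 0.239), whereas the edgeR quasi-likelihood test gave 0.0259, the edgeR exact test 0.00232 and DESeq2 5.3e-06.

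Cideb, the CIDE protein that works in the lipidation of secreted lipoproteins, rose by far less. It was at 39.2, 40.02 and 42.0 CPM in chow and at 49.0, 54.0 and 63.5 CPM (lowest, median, highest) in WD WT EV. The values were tight enough not to overlap, and the log2 fold change was 0.49 ± 0.10 (SE) at an adjusted p-value of 0.00136. Cideb shares 1141 of its 1493 exonic bases with Nop9 on the other strand, and the sources used here do not say whether counting used strand, so reads of the 2 genes may not be fully separated. Nop9 itself held 262 to 700 counts per library, with a log2 fold change of -0.09 ± 0.09 (SE) in this comparison (adjusted p = 0.514).

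Pnpla2 encodes adipose triglyceride lipase, which carries out the first step of triglyceride breakdown. It was at 43.5, 51.9 and 73.4 CPM in chow and at 61.4, 68.9 and 75.4 CPM (lowest, median, highest) in WD WT EV. The groups overlapped, and the log2 fold change of 0.44 ± 0.13 (SE) was called (adjusted p = 0.0149). It fell to 0.15 (adjusted p = 0.65) without chow WT EV replicate 1, the lowest chow library, and to 0.28 (adjusted p = 0.421) without chow WT EV replicate 2. It was called in 4 of 9 alternative fits, and not by DESeq2 (0.246) or by edgeR with its quasi-likelihood (0.257) or exact (0.287) test. Its inhibitor G0s2 was at 114, 41.5 and 40.1 CPM in chow and at 42.6, 165 and 199.6 CPM (lowest, median, highest) in WD WT EV. One library of each group lay among those of the other. G0s2 rose by 1.19 ± 0.40 (SE) on the log2 scale, with an adjusted p-value of 0.0341, and by 1.74 without chow WT EV replicate 1, here the highest chow library. It was called in 3 of 9 alternative fits and in 4 of 9 fits with 1 library left out. The edgeR quasi-likelihood test gave an adjusted p-value of 0.138, the edgeR exact test 0.114 and DESeq2 0.0865. The call was lost without chow WT EV replicate 2 or 3 or WD WT EV replicate 1, 4 or 7, with the lowest log2 fold change, 0.97, without chow WT EV replicate 3.

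Pnpla3 and Pnpla5 are close relatives that lie beside each other on chromosome 15, from 84167816 to 84189512 and from 84112621 to 84123175 (GRCm38), on opposite strands. Pnpla3, a droplet protein best known for its genetic link to fatty liver, was at 1.03, 0.134 and 0.986 CPM in chow. It was at 2.45, 9.31 and 25.7 CPM (lowest, median, highest) in WD WT EV, with no overlap. The log2 fold change was 4.53 ± 1.53 (SE) at an adjusted p-value of 0.0351. The call was lost without chow WT EV replicate 1, 2 or 3 (adjusted p = 0.275, 0.3 and 0.055), with a log2 fold change of 3.20 without replicate 2. Of 9 alternative fits, 7 kept the call. It was lost without sample quality weights (adjusted p = 0.124) and with no filter on low counts (adjusted p = 0.0528). Pnpla5, a less studied lipase, had 0 counts in every chow library and 0.185, 3.44 and 5.15 CPM (lowest, median, highest) in WD WT EV. It was at least 76.3-fold higher there than the limit that a floor of 3 counts over the chow group allows, and passed the test with an adjusted p-value of 0.0175.

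**Figure D2:**
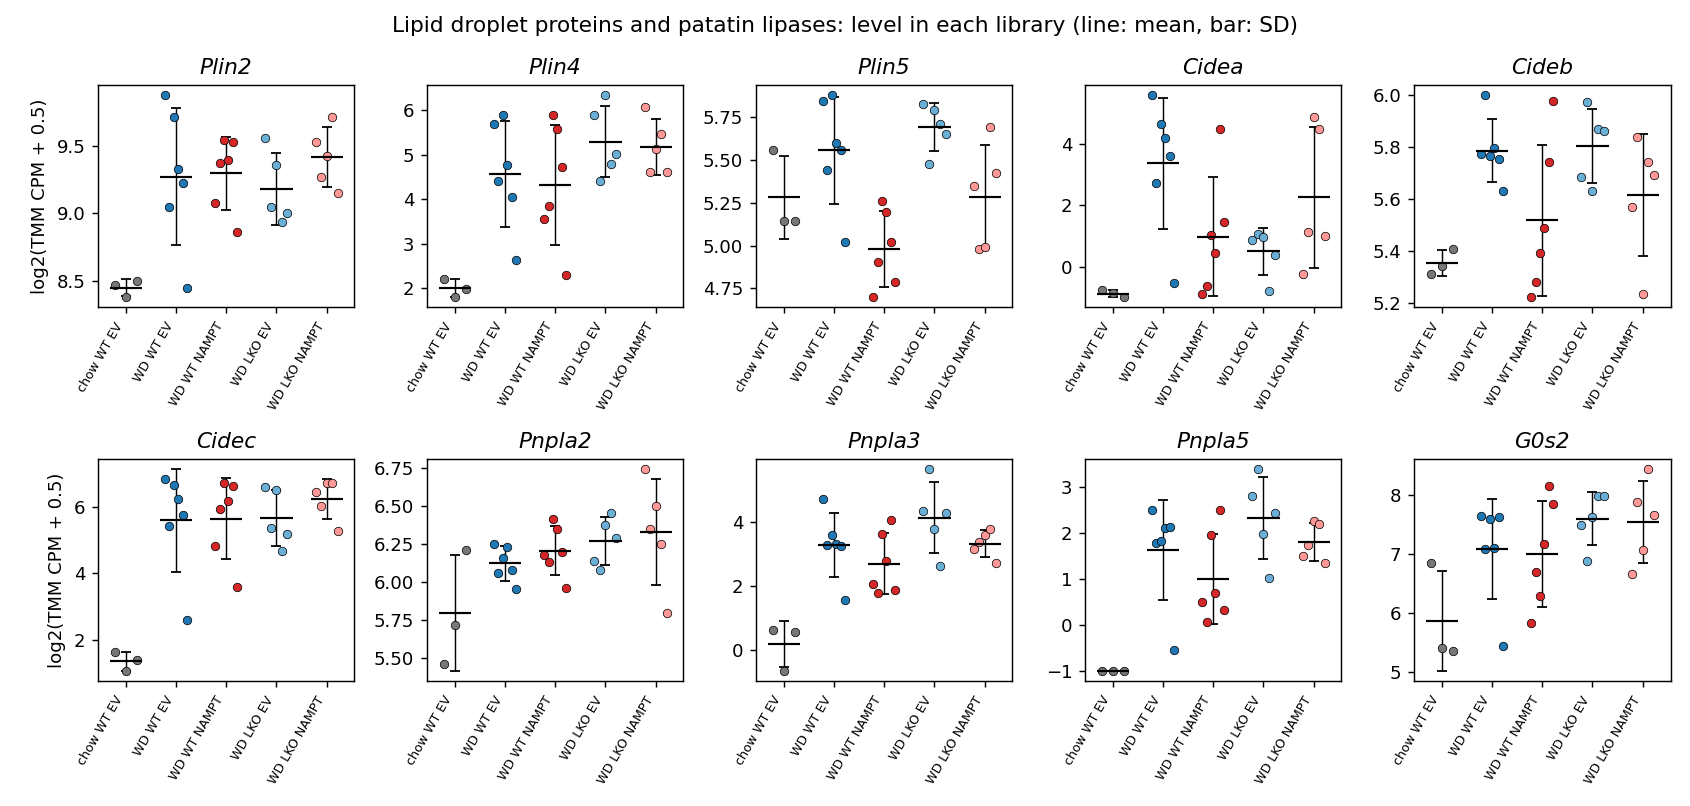
Level of each of the 10 members in all 25 libraries, as log2(TMM CPM + 0.5), by group. Points are libraries, horizontal lines are group means and bars are 1 SD. WD WT EV holds 1 library near or at the chow level for most members, and Plin5 is lower in WD WT NAMPT than in WD WT EV.

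These calls depended on the fit and on few chow libraries. Without sample quality weights only Plin2 was called, and with no filter on low counts 4 members were (Plin2, Cideb, Cidec and Pnpla5). The edgeR quasi-likelihood test called 6 members, and the edgeR exact test and DESeq2 called 7 each. Without chow WT EV replicate 1, 2 of 10 members were called (Plin2 and G0s2), and without chow WT EV replicate 2 none was, with Plin2 at an adjusted p-value of 0.0594. In both fits all 10 log2 fold changes were positive. When libraries were scaled by total counts alone, 32.6% of the called genes were higher, against 45.6% here, and 8 of 10 members were called as well. On the other side of the comparison, WD WT EV replicate 8 was the lowest of its 6 libraries for all 10 members, and WD WT EV replicate 1 was the highest for 7. Without WD WT EV replicate 8 the log2 fold change of Cidec was 5.10, that of Plin4 was 3.12 and that of Plin2 was 0.99.

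Other genes of the same pathway were read beside the members. Of 26 other droplet and lipolysis genes, 24 were tested, 7 rose and 1 fell, with a median log2 fold change of 0.13. The largest rises were those of Fitm1 (1.93 ± 0.35, SE), which helps triglyceride partition into droplets, Mgll (1.13 ± 0.17), the monoglyceride lipase, Fitm2 (0.72 ± 0.16), the relative of Fitm1, and Pnpla7 (0.69 ± 0.10), a lysophospholipase. Plin3, a perilipin found in most cells, was at 41.1 ± 5.95 CPM (SD, n = 3) in chow, against 46.1 ± 11.4 CPM (SD, n = 6) in WD WT EV (adjusted p = 0.538). Abhd5, the coactivator of Pnpla2, was at 20.1 ± 3.79 and 21.4 ± 3.73 CPM (adjusted p = 0.969). Of 12 transcription factors of lipid metabolism, 3 rose and 1 fell. The lipogenic factor Srebf1 rose by 1.63 ± 0.19 (SE) on the log2 scale, Pparg by 1.29 ± 0.27 and Ppara by 1.04 ± 0.16, whereas Ppard fell by 1.74 ± 0.22.

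Markers of other cells were read beside these values. Of 10 macrophage markers, 1 rose with the diet (Cd68, log2 fold change 0.79 ± 0.28, SE), a count that ran from 0 to 5 over the 9 alternative fits and was 0 without chow WT EV replicate 1 or 2 or WD WT EV replicate 1 or 2. Their summed level was 193 to 225 CPM in chow and 200.5 to 337 CPM in WD WT EV. Of 8 stellate cell markers, 1 rose (Lrat, 0.54 ± 0.11), and of 7 hepatocyte markers, 2 fell (Cps1 by 1.22 ± 0.25 and Tat by 0.95 ± 0.21), of which 1 was called without chow WT EV replicate 1 or 2. The part of these markers in the results was not tested. Adipocytes express Cidea, Cidec and Plin4 as well. All 8 adipocyte markers, Cidea among them, summed to 1.07 to 2.11 CPM in chow and 2.17 to 74.8 CPM in WD WT EV. Besides Cidea this came from Cfd, which was at 0.0698 ± 0.0251 CPM (SD, n = 3) in chow and 31.3 ± 23.2 CPM (SD, n = 6) on Western diet. Its fit did not pass the test (adjusted p = 0.281). Adrb3, the beta-3 adrenergic receptor gene, was the 1 adipocyte marker called of the 3 tested, and it fell by 1.27 ± 0.37 (SE) on the log2 scale (adjusted p = 0.0157). It was not called by edgeR or DESeq2, without sample quality weights, without the filter on low counts, or without chow WT EV replicate 1 or 2. No adipocyte marker was called higher in the main fit, but 2 were by each of the edgeR tests and by DESeq2. Apart from Cidea and the adipokine gene Cfd, the other 6 adipocyte markers (Adipoq, Lep, Plin1, Retn, Adrb3 and Slc7a10) summed to 0.986 to 1.98 CPM in chow and 0.338 to 1.78 CPM in WD WT EV. The WD WT EV library with the most Cidea, replicate 1 with 48.3 CPM, had 0 counts of Adipoq and of Lep. In 2 libraries these 6 markers summed to more than in any chow or WT library. They were WD LKO NAMPT replicate 3, at 4.10 CPM with 25 counts of Adipoq and 29 of Lep, and WD LKO NAMPT replicate 4, at 2.16 CPM with 3 and 0 counts. These libraries were at 29.3 and 22.3 CPM for Cidea.

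Within the Western diet groups, several members varied together from mouse to mouse. How many genes outside the set would follow Cidec as closely was not tested. The deviation of each of 22 libraries from its group mean of log2(CPM + 0.5) was compared between Cidec and the 9 other members and Pparg, which makes 10 relations. Two-sided permutation tests used 100000 resamples, for which 1e-05 is the smallest p they can give. Plin2 followed Cidec with a Pearson r of 0.94 (permutation p = 1e-05, adjusted 0.0001) and a Spearman rho of 0.931 (permutation p = 1e-05, adjusted 0.0001). Plin4 followed with an r of 0.879 (permutation p = 2e-05, adjusted 0.0001) and a rho of 0.886 (permutation p = 2e-05, adjusted 0.0001). Leaving out the 2 libraries farthest out for Cidec, WD WT EV replicate 8 and WD WT NAMPT replicate 6, left an r of 0.908 for Plin2 and 0.801 for Plin4. Within WD WT EV alone the r was 0.948 for Plin2 and 0.934 for Plin4, and within WD WT NAMPT alone it was 0.996 and 0.902. In the groups labelled LKO, of only 5 libraries each, it was 0.963 and 0.861 in WD LKO EV and 0.843 and 0.639 in WD LKO NAMPT.

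Pparg, the nuclear receptor with a known role in the expression of Cidec, had an r of 0.835 with Cidec (permutation p = 5e-05, adjusted 0.000167) and a rho of 0.814 (permutation p = 9e-05, adjusted 0.0003), and an r of 0.724 without the same 2 libraries. Within the groups the r of Pparg ran from 0.344 in WD LKO NAMPT to 0.923 in WD LKO EV. The r was 0.742 for Pnpla5, 0.702 for Pnpla3, 0.692 for Plin5, 0.632 for Cidea and 0.477 for Pnpla2, with adjusted permutation p-values between 0.0035 and 0.00602. Their rho ran from 0.468 to 0.668, with adjusted permutation p-values between 0.00362 and 0.0333. Without the same 2 libraries the r of these members ran from 0.374 (Pnpla2) to 0.622 (Cidea). The relation was uneven between groups, as the r of Plin5 was 0.967 in WD WT EV and -0.022 in WD LKO NAMPT, and that of Pnpla2 was 0.883 and -0.304 in WD WT EV and WD LKO EV. For Cideb and G0s2 the pooled relation did not pass the test, with an r of -0.219 (permutation p = 0.349, adjusted 0.349) and 0.336 (permutation p = 0.185, adjusted 0.206), and a rho of -0.215 (permutation p = 0.353, adjusted 0.392) and 0.195 (permutation p = 0.415, adjusted 0.415). Within WD WT EV, however, the r of G0s2 was 0.953, against values from -0.275 to -0.071 in the other 3 groups. That of Cideb ran from -0.827 in WD LKO EV to 0.427 in WD WT EV. Without WD WT EV replicate 8, a choice made after seeing the data, the r within WD WT EV was 0.556 for G0s2 and -0.679 for Cideb over 5 libraries. It was then 0.973 for Plin2 and 0.899 for Plin4.

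**Figure D3:**
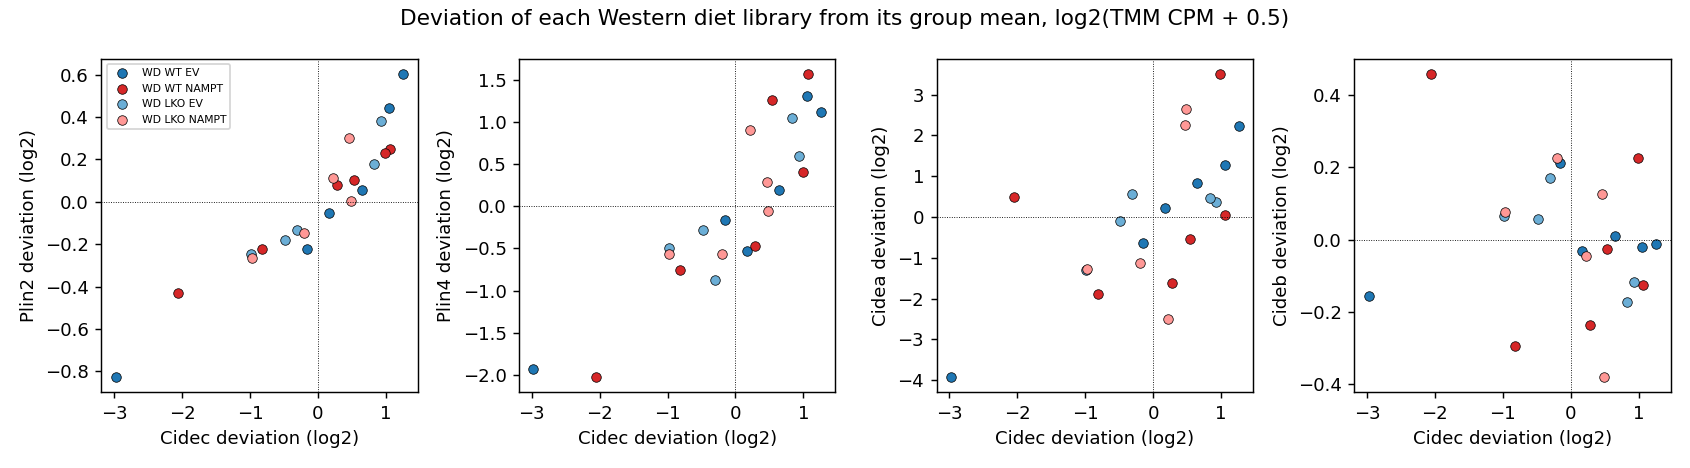
Deviation of Plin2, Plin4, Cidea and Cideb from the group mean against that of Cidec, in log2(TMM CPM + 0.5), for the 22 Western diet libraries. Each point is a library, colored by group. Plin2 rises along a narrow line (r = 0.94), Plin4 more loosely (r = 0.879), Cidea with a wide scatter (r = 0.632), and Cideb shows no rise (r = -0.219).

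The spread between mice on Western diet differed strongly between members. From the lowest to the highest of the 22 Western diet libraries, Cideb covered a 1.72-fold range, Pnpla2 1.94-fold, Plin5 2.29-fold and Plin2 2.70-fold. G0s2 covered 8.12-fold, Plin4 18.5-fold, Cidec 20.4-fold, Pnpla3 20.5-fold and Pnpla5 54.5-fold. Cidea covered a 1264-fold range, from 1 count in WD WT NAMPT replicate 1 to 1144 counts in WD WT EV replicate 1, so its group means rest on a few libraries.

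As a description, the genes with the pattern most like 3 members, those with the largest ratio of highest to lowest group mean, were listed over all 25 libraries by the Pearson r of log2(CPM + 0.5). For Pnpla5 they were its neighbor Pnpla3 (r = 0.965), Acaca (0.928), the acetyl-CoA carboxylase of fatty acid synthesis, and Tbc1d31 (0.881). For Cidea they were B430212C06Rik (0.963), Cfd (0.857) and Cacng7 (0.85). B430212C06Rik lies on the strand opposite to Cidea and shares 20 exonic bases with it. For Cidec they were Cgref1 (0.955), Plin2 (0.946) and Osbpl3 (0.943). The libraries include the chow group, and the points share diet and scaling. Over the 22 Western diet libraries alone, the r of Pnpla5 with Pnpla3 was 0.953 and that of Cidea with Cfd was 0.83. For Cidec it was 0.933 with Plin2, and 0.896 with Osbpl3 and 0.875 with Cgref1, which are outside the set.

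Promoters are shown for 2 pairs of members that followed each other over the libraries, Plin2 with Cidec and Pnpla5 with Pnpla3. Each is the stretch of 250 bases before a RefSeq transcription start (GRCm38.p6), given 5′ to 3′ on the strand of the gene, in lower case with motif matches in capitals. The coordinates are chr4:86670060-86670309 for Plin2 and chr6:113435761-113436010 for Cidec (1 of its 2 starts). They are chr15:84123176-84123425 for Pnpla5 and chr15:84167566-84167815 for Pnpla3. Plin2, Cidec and Pnpla5 lie on the minus strand and Pnpla3 on the plus strand.
Plin2: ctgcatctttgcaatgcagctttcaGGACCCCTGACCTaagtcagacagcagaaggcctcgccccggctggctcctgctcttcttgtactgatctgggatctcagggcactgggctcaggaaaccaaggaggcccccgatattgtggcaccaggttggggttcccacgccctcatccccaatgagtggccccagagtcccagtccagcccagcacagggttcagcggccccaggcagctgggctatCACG
Cidec: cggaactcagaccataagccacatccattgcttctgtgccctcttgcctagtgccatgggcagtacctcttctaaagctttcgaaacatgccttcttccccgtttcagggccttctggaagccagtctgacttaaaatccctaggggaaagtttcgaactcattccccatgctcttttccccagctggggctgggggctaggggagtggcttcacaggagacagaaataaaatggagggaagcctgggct
Pnpla5: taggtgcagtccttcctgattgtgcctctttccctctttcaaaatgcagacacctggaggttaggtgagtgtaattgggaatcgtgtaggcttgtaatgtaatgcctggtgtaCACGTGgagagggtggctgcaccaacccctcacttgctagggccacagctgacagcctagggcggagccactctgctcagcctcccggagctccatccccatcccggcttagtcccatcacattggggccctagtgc
Pnpla3: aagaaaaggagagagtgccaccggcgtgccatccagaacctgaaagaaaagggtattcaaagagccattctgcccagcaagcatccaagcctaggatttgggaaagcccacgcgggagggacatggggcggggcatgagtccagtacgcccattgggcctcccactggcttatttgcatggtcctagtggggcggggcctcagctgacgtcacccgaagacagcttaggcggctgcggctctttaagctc

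A window of 300 bases around each start, reaching 50 bases past it, was searched on both strands. The motifs were the nuclear receptor half-site AGGTCA, 2 such half-sites in the same direction with 1 base between them (DR1, with at most 2 letters different) and the E-box CACGTG. Of 32851 windows of all genes, 16.3% held the half-site, 3.86% the DR1 and 7.15% the E-box. A DR1 match contains or nearly contains a half-site, so these counts overlap. The Plin2 window held a DR1 with 2 differences on the opposite strand, from base -225 to -213 counted from the start, of which the last 6 letters are a half-site. Its closing capitals are the first 4 letters of an E-box that crosses the start, from base -4 to 2. The Pnpla5 window held an E-box from base -137 to -132, and the Pnpla3 window held no match. Both Plin5 windows held a half-site. No match was found in the windows of Plin4, Cideb, Cidec, Pnpla2 or G0s2, and Cidea was not matched in the table. A match or its absence describes these letters only.

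The next comparison asked what the NAMPT vector changed in WT liver on Western diet. It shares the WD WT EV libraries with the diet comparison. Plin5 and Cideb fell, 2 of 10 members, and none rose. Of all genes tested, 13.4% were called and 5.77% were called lower. The libraries of both groups overlapped for all 10 members, and the median log2 fold change of the members was -0.21 (-0.215), against 0.00 (0.0041) over all genes.

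Plin5 was at 31.9, 47.3 and 58.4 CPM (lowest, median, highest) in WD WT EV and at 25.5, 30.7 and 37.9 CPM in WD WT NAMPT. Only the lowest WD WT EV library, replicate 8, lay among the NAMPT libraries. The log2 fold change was -0.46 ± 0.14 (SE) at an adjusted p-value of 0.0357. Cideb was at 49.0, 54.0 and 63.5 CPM in WD WT EV and at 36.8, 42.9 and 62.5 CPM in WD WT NAMPT. Of the 6 NAMPT libraries, 2 lay among the EV libraries and 4 below them. Its log2 fold change was -0.33 ± 0.10 (SE) at an adjusted p-value of 0.0261. Nop9, on the strand opposite to Cideb, had a log2 fold change of 0.01 (0.0054) in this comparison. The adjusted p-value of Plin5 ran from 0.00161 to 0.18 over 9 alternative fits, of which 5 called it. That of Cideb ran from 0.04 to 0.199, and 1 of 9 called it.

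Scaling set part of this result. With libraries scaled by total counts alone, the median of all genes moved to 0.16 and 88.1% of the called genes were higher, against 57.1% here. Plin5 was then at -0.31 (adjusted p = 0.18) and Cideb at -0.18 (adjusted p = 0.138), each lower relative to that median. The number of members called also moved with single libraries. It was 0 without WD WT EV replicate 2 or 6 or without WD WT NAMPT replicate 1, 2 or 3. It was 1 without WD WT EV replicate 1 or 4 or WD WT NAMPT replicate 4, and 3 without WD WT EV replicate 8.

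The members that the diet raised most did not pass the test with the NAMPT vector. Cidec averaged 65.2 ± 39.8 CPM (SD, n = 6) in WD WT EV, against 62.4 ± 37.2 CPM (SD, n = 6) in WD WT NAMPT, with a log2 fold change of 0.50 and a 95% interval from -0.57 to 1.57. Plin2 was at 649.9 ± 214 and 638 ± 112 CPM, with a log2 fold change of 0.14 and an interval from -0.22 to 0.49. Plin4 had a log2 fold change of 0.46, with an interval from -0.57 to 1.48. The sign of these 3 values changed with the test used, as edgeR and DESeq2 gave values slightly below 0. For Pnpla2, Pnpla3, Pnpla5 and G0s2 the log2 fold changes were 0.17, -0.29, -0.47 and -0.14, with adjusted p-values between 0.348 and 0.85. Intervals of this width do not show that these genes were alike in the 2 groups.

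Cidea had the largest fitted difference with the NAMPT vector, -2.82 ± 1.36 (SE) on the log2 scale, which was not called (adjusted p = 0.162). Its values were 0.185, 14.8 and 48.3 CPM (lowest, median, highest) in WD WT EV. In WD WT NAMPT they were 0.0382, 1.2 and 22.1 CPM, with 5 of 6 libraries at or below 2.26 CPM and replicate 5 at 22.1 CPM. Without WD WT EV replicate 8 the log2 fold change was -3.67, with an adjusted p-value of 0.0258. Without WD WT NAMPT replicate 5 it was -3.69 and was not called (adjusted p = 0.148), nor was it when any of the other 10 libraries was left out. Cfd, the adipokine gene that followed Cidea over the libraries, was at 31.3 ± 23.2 CPM (SD, n = 6) and 15 ± 29.5 CPM (SD, n = 6) in the 2 groups (adjusted p = 0.147). The other 6 adipocyte markers summed to 0.708 to 1.27 CPM in WD WT NAMPT.

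Of the 24 other droplet and lipolysis genes tested, 6 fell with the NAMPT vector and none rose. They were led by Fitm1 (-1.23 ± 0.31, SE), Ces1d (-0.99 ± 0.21), a triglyceride hydrolase of the endoplasmic reticulum, Mgll (-0.52 ± 0.17) and Hsd17b11 (-0.44 ± 0.12), a droplet-bound dehydrogenase. Fitm1 averaged 64.0 ± 21.6 CPM (SD, n = 6) under EV, against 30.6 ± 21.5 CPM (SD, n = 6) under NAMPT. The count of genes that fell ran from 1 to 5 over the 9 alternative fits, with 1 in both edgeR tests. It was 2 without WD WT EV replicate 2, 3 without WD WT EV replicate 6 or WD WT NAMPT replicate 2, and 1 without WD WT NAMPT replicate 3, and otherwise between 4 and 8. Scaling by total counts alone gave 1 gene higher and 2 lower. Of the 12 transcription factors, 1 fell (Mlxipl, the carbohydrate response factor ChREBP, -0.40 ± 0.13) and none rose, and Mlxipl was called in 0 of the 9 alternative fits.

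Markers of other cell types moved in the same comparison. Of 10 macrophage markers, 5 rose, led by Trem2 (1.92 ± 0.54, SE), Itgam (1.87 ± 0.43), Lyz2 (1.14 ± 0.26) and Cd68 (0.995 ± 0.229). The count ran from 0 to 8 over the 9 alternative fits, and was 0 without WD WT NAMPT replicate 3 and 8 without WD WT NAMPT replicate 5 or 6. Their summed level was 200.5 to 337 CPM in WD WT EV and 207 to 682 CPM in WD WT NAMPT, and none was at 0 counts. Of 6 neutrophil markers, 3 were tested and 2 rose (S100a9, 1.57 ± 0.48, and Csf3r, 1.28 ± 0.30), with summed levels of 2.73 to 7.13 CPM and 3.56 to 25.9 CPM. That count ran from 0 to 2 over the 9 alternative fits. It was 0 without WD WT NAMPT replicate 3, 3 without WD WT NAMPT replicate 5 or 6, 2 without WD WT EV replicate 1 or 4 and 1 without any other library. Of 8 stellate cell markers, 3 rose (Col1a1, 1.70 ± 0.48, Des, 0.66 ± 0.16, and Rgs5, 0.49 ± 0.15), with summed levels of 242 to 316 CPM and 233 to 434 CPM. That count ran from 0 to 4 over the 9 alternative fits. It was 0 without WD WT NAMPT replicate 3, 1 without WD WT EV replicate 2 or 6 or WD WT NAMPT replicate 2, and otherwise between 2 and 4. None of the 7 hepatocyte markers was called. The part of these markers in the fall of Plin5 and Cideb was not tested.

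**Figure D4:**
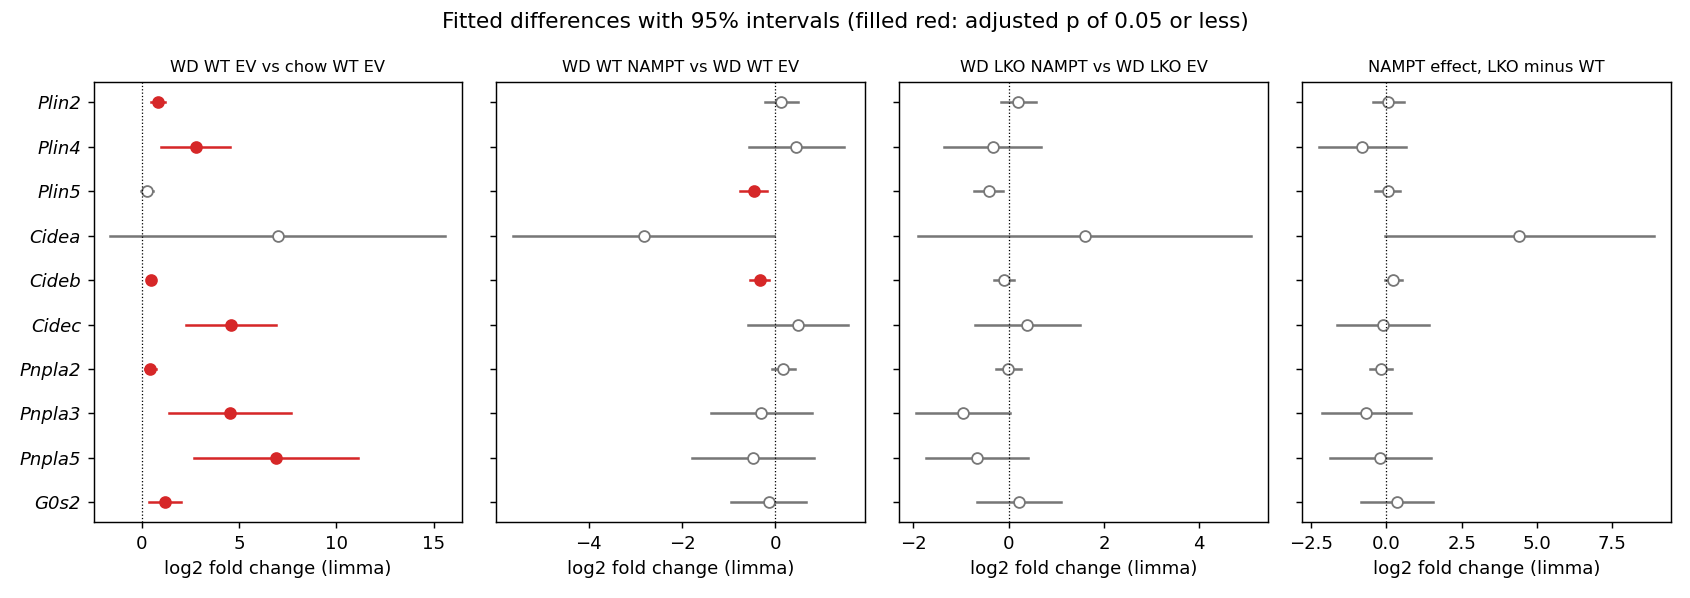
Log2 fold change of each member with its 95% interval in the limma fit, for the diet, for the NAMPT vector in WT, for the NAMPT vector in libraries labelled LKO, and for the difference between the last 2. Filled red points are called at an adjusted p-value of 0.05 or less, which holds for 8 members with the diet, for Plin5 and Cideb with NAMPT in WT, and for no member in the other panels. The horizontal axes differ between panels.

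The same vector was then compared in the libraries labelled LKO. No member was called by limma, edgeR or DESeq2, and 0.00711% of all genes were called. The unadjusted limma p-value was under 0.05 for 1 of 10 members and for 1355 of all 14065 genes. That member was Plin5. Its values were 56.3, 44.0, 55.0, 51.9 and 49.8 CPM in WD LKO EV and 40.2, 31.1, 31.3, 51.2 and 42.5 CPM in WD LKO NAMPT. Of the 5 NAMPT libraries, 4 were below every EV library and 1 lay among them. The log2 fold change was -0.42 ± 0.15 (SE) at an adjusted p-value of 0.345. Pnpla3 was at 21.6 ± 17 CPM (SD, n = 5) and 9.87 ± 2.82 CPM (SD, n = 5), with a log2 fold change of -0.96 ± 0.48 (SE) and an adjusted p-value of 0.532. Its highest value, 50.3 CPM, was that of WD LKO EV replicate 2, without which the log2 fold change was -0.54. Cidea was at 1.33, 1.60, 1.45, 0.0773 and 0.814 CPM in WD LKO EV and at 0.349, 1.71, 29.3, 22.3 and 1.49 CPM in WD LKO NAMPT, so that 2 NAMPT libraries stood above all others (log2 fold change 1.60 ± 1.69, adjusted p = 0.801). For Cidea this fold change ran from 1.57 to 3.38 over the 9 alternative fits. It was 0.99 without WD LKO NAMPT replicate 4, 0.996 without WD LKO EV replicate 4 and 2.19 without WD LKO NAMPT replicate 2. The 2 NAMPT libraries with high Cidea, WD LKO NAMPT replicates 3 and 4, had the highest sums of the 6 other adipocyte markers, 4.10 and 2.16 CPM. The part of these markers was not tested.

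Whether the NAMPT effect differed between genotypes was tested by the interaction, the effect in libraries labelled LKO minus that in WT. No member was called by limma, edgeR's quasi-likelihood test or DESeq2, and 0.00711% of all genes were called. The unadjusted limma p-value was under 0.05 for 0 of 10 members and for 2986 of all 14065 genes. For Plin5 the difference between the 2 effects was 0.04 ± 0.20 (SE) on the log2 scale, with a 95% interval from -0.38 to 0.46. The interval leaves room for differences as large as either effect, and the effect in LKO was -0.22 (adjusted p = 0.969) without WD LKO NAMPT replicate 2. Cidea had the widest difference, 4.42 ± 2.17 (SE), with an interval from -0.06 to 8.89 and an adjusted p-value of 0.241. Its difference ran from 4.15 to 5.47 over 8 alternative fits. With 1 library left out it ran from 3.81 (WD LKO EV replicate 4) to 5.29 (WD WT NAMPT replicate 5). For Plin4 the difference was -0.79 ± 0.70 (SE) at an adjusted p-value of 0.528. It turned positive when sample quality weights were left out.

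The label LKO was last compared with WT under each vector. With EV, no member was called by any of the tools, and 0.00711% of all genes were called. The unadjusted limma p-value was under 0.05 for 1 of 10 members and for 891 of all 14065 genes. That member was Cidea, which averaged 1.06 ± 0.622 CPM (SD, n = 5) in WD LKO EV, against 18.1 ± 17.1 CPM (SD, n = 6) in WD WT EV. Its log2 fold change of -3.27 ± 1.54 (SE) had an adjusted p-value of 0.774. It ran from -5.13 to -3.25 over the 9 alternative fits, and from -4.12 without WD WT EV replicate 8 to -2.67 without WD LKO EV replicate 4. The 5 WD LKO EV libraries, between 0.0773 and 1.60 CPM, all lay below 5 of the 6 WD WT EV libraries. Cfd and Adrb3, the adipocyte markers tested besides Cidea, were also lower without passing the test. Cfd was at 7.54 ± 6.38 CPM (SD, n = 5) against 31.3 ± 23.2 CPM (SD, n = 6), with a log2 fold change of -1.68 (adjusted p = 0.877). Adrb3 had a log2 fold change of -1.29 (adjusted p = 0.661). The 6 markers other than Cidea and Cfd had a median sum of 0.402 CPM against 1.11 CPM. Adrb3, which is in this sum, averaged 0.337 CPM against 0.76 CPM. Adipoq was at 0 counts in 5 of 5 WD LKO EV libraries and 3 of 6 WD WT EV libraries. Plin1 went the other way, at 0.0363 CPM against 0.0138 CPM, with at most 2 counts in a library. The part of these markers was not tested. Pnpla3 had a log2 fold change of 0.92 ± 0.46 (SE) at an adjusted p-value of 0.801. Over the 9 alternative fits it ran from 0.11 to 0.98, and it was 0.50 without WD LKO EV replicate 2 and 0.61 without WD WT EV replicate 8. The other 8 members had adjusted p-values between 0.886 and 0.999.

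With NAMPT, again no member was called by any of the tools, and 7.96% of all genes were called. The unadjusted limma p-value was under 0.05 for 1 of 10 members (Cideb) and for 4023 of all 14065 genes. The log2 fold change of Cidea was 1.14 ± 1.53 (SE; adjusted p = 0.648). It ran from 0.06 to 2.02 over the 9 alternative fits, and was 0.54 without WD LKO NAMPT replicate 4, 0.58 and 0.61 without WD WT NAMPT replicates 1 and 2, 2.01 without WD WT NAMPT replicate 5 and 1.74 without WD LKO NAMPT replicate 2. That of G0s2 was 0.78 ± 0.43 (SE; adjusted p = 0.228), with a range from 0.46 to 0.84 over the same fits, and was 0.45 without WD WT NAMPT replicate 3. G0s2 was at 100.2, 235, 134, 346 and 202 CPM in WD LKO NAMPT and at 56.1, 123 and 282 CPM (lowest, median, highest) in WD WT NAMPT, with wide overlap. Among the 24 other droplet and lipolysis genes, 5 were higher in WD LKO NAMPT, led by Fitm1 (1.19 ± 0.32, SE), Ces1d (0.74 ± 0.22), Mgll (0.66 ± 0.18) and Fitm2 (0.53 ± 0.16), and none was lower. That count ran from 0 to 3 over the 9 alternative fits. It was 0 without WD WT NAMPT replicate 2 or 3 or WD LKO NAMPT replicate 2, 3 or 5, 1 without WD WT NAMPT replicate 1 or 4, and 8 without WD WT NAMPT replicate 5 or 6. Of the macrophage markers, Itgam and Lyz2 were lower (-1.27 ± 0.39 and -1.05 ± 0.28), and the 10 macrophage markers summed to 232 to 502 CPM in WD LKO NAMPT. The neutrophil marker Csf3r (-1.31 ± 0.31) and the hepatocyte marker Tat (-0.74 ± 0.21) were lower as well. Over the 9 alternative fits the macrophage count ran from 0 to 4, the neutrophil count from 0 to 1 and the hepatocyte count from 0 to 1, with 0 in all 3 lists by edgeR and DESeq2. All 3 counts were 0 without WD WT NAMPT replicate 2 or 3 or WD LKO NAMPT replicate 2, 3 or 5. The macrophage count was also 0 without WD WT NAMPT replicate 1 and 1 without WD LKO NAMPT replicate 4, and it was 3, 5 and 6 without WD WT NAMPT replicates 4, 5 and 6 and 5 without WD LKO NAMPT replicate 1. The neutrophil count was 2 without WD WT NAMPT replicate 5 or 6 or WD LKO NAMPT replicate 1. The part of these markers was not tested. The interaction of Fitm1 was 1.64 ± 0.44 (SE) at an adjusted p-value of 0.0745, so in this fit the NAMPT effect on Fitm1 was not shown to differ between genotypes. For the interaction, 0 of the 24 genes were called, but 1 was without WD WT EV replicate 8, 2 without WD WT NAMPT replicate 5, 3 without WD WT NAMPT replicate 6 and 4 without WD LKO NAMPT replicate 1, each of them positive.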

How the data were processed

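Liver RNA was measured by poly-A sequencing in 25 mice, 1 library each, and groups were taken from the sample titles. The titles and the series design give NAMPT as the insert of the vector, and were used, although the treatment text gives SIRT1. The authors aligned reads to GRCm38 with STAR and counted them per gene with featureCounts (2.5.1a and 1.4.6-p5 in the submitters' processing notes). Each deposited file gives a gene's raw counts beside CPM and RPKM values made by the authors, and the latter 2 were recomputed from the counts to within a relative deviation of 5.9e-14. Only counts were analyzed further.

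Symbols were matched to 40254 of 41388 Ensembl identifiers. Genes over 1 CPM in at least 2 libraries were kept, 4 ribosomal RNA genes were left out, and 14065 genes remained. Counts were scaled by TMM (edgeR 4.0.16) and fitted with voomWithQualityWeights of limma 3.58.1 (R 4.3.3), as the methods of the study state, with 1 mean per group, all 25 libraries and no covariates. Genes with a Benjamini-Hochberg adjusted p-value of 0.05 or less over all genes kept were called. Standard errors and 95% intervals are those of limma, and fold values are 2 to the power of the fitted log2 fold change. The pseudocount for log2 CPM was 0.5. Libraries are separate mice, and no batch is given in the labels. The counting interval of the Cidea ratio is an exact Poisson interval on the chow counts and covers counting error only, as does the floor of 3 counts.

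All 10 members were named. Genes of hand-written lists were named where called, at most 4 per list and comparison by size, apart from Plin3, Abhd5, Cfd, Nop9 and the adipocyte markers, which were named after their values were seen. The members and lists were chosen with earlier results of these data known. On simulated counts with 200 of 14065 genes changed 2-fold, 69% were recovered for the diet comparison and 70% for each NAMPT comparison, with 6, 7 and 5 false calls. The alternatives were the edgeR quasi-likelihood and exact tests, DESeq2 1.42.0, no sample quality weights, scaling by library size only, upper-quartile size factors, no filter on low counts, only the groups compared, a replicate block and leaving out each library.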

Additional observations from a re-analysis of the deposited data

Results flagged for a closer look

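Cidea in WD WT NAMPT replicate 5 was at 22.1 CPM, while the other 5 libraries of the group were between 0.0382 and 2.26 CPM. The gap to the nearest library was 0.899 of the range of the group, above the 95% critical value of Dixon's test. In the same library Cfd was at 75.0 CPM, its highest value in the group. This was 1 of 40 groups of values tested, and chance alone flags about 1 in 20. No member passed the test of a difference in the NAMPT effect between genotypes (0 of 10).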

How the results depend on the processing

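For the diet, 8 of 10 members were called, 1 without sample quality weights, 4 with no filter on low counts, and 0 to 8 when 1 library was left out. For NAMPT in WT, 2 members were called, 1 with each of edgeR quasi-likelihood, edgeR exact test, DESeq2, no sample quality weights, upper-quartile size factors and the replicate block, 0 with library size only, no filter on low counts or only the groups compared, and 0 to 3 with 1 library left out. The cause was not tested. In the other 4 comparisons the count was 0 in every fit run.

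NAMPT values in WT that changed sign were those of Plin2 (-0.027 with both edgeR tests and DESeq2, -0.24 with the replicate block), Plin4 (-0.14, -0.15 and -0.15 with edgeR quasi-likelihood, edgeR exact test and DESeq2, -0.21 without sample quality weights, -0.70 with the replicate block) and Cidec (-0.0634, -0.0653 and -0.0636, and -0.63 with the replicate block). With 1 library left out, the lowest and highest were -0.0162 and 0.27 for Plin2, -0.0162 and 0.78 for Cidec and -0.47 and 0.19 for G0s2. The sign changed for Plin2 and Cidec without WD WT EV replicate 8, and for G0s2 without WD WT NAMPT replicate 1, 2 or 3. For the interaction, Plin5 was at -0.0853 with library size only and -0.0163 with upper-quartile size factors, and between -0.0852 and 0.24 with 1 library left out, and Plin4 was at 0.0871 without sample quality weights and 0.60 with the replicate block. No called gene of the other lists changed sign in these fits.

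Deviations of same-numbered mice of 2 groups had correlations from -0.327 to 0.368. Differently numbered mice were not compared beside them, so these values do not settle whether the numbers pair the samples. The replicate block gave 9 called members for the diet (Plin5 added) and 1 for NAMPT in WT (Plin5). With it, 1 of the 24 other droplet and lipolysis genes was called for the interaction, against 0. With library size only, the median of all genes moved to -0.12 for WD LKO NAMPT against WD WT NAMPT, where 24.3% of called genes were higher against 52.5%, and to -0.15 for the interaction. The number of all genes called also moved with the fit. For the diet it was 3101, from 1201 without sample quality weights to 3842 with the replicate block, and for NAMPT in WT 1890, from 192 to 2281. For WD LKO NAMPT against WD WT NAMPT it was 1120, from 13 to 1058. With 1 library left out these counts ran from 834 to 3175, from 132 to 2844 and from 0 to 2290. Depth limits Cidea, Pnpla3 and Pnpla5 in chow, with at most 25 counts in a library.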
